A study of Mus musculus with 9 samples.

Results

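The genes described here are 32 genes of glucose uptake, glycolysis, lactate handling and the pentose phosphate pathway, out of 26858 genes in a table of read counts from SIX2 nephron progenitors. They were taken as a set of gene symbols by their place in these pathways, proposed with earlier results of these data known, and *Tigar*, which the table holds under an older symbol, was found by its gene identifier. Progenitor cells of the cap mesenchyme were isolated by FACS from mouse kidneys at E18.5. The sort used eGFP, which is fused to Cre recombinase and driven by the *Six2* promoter of a bacterial artificial chromosome transgene carried by both groups. In the mutant group, *Six2-Qpc*-/-, both alleles of *Qpc* were floxed for deletion in cells with *Six2*-driven Cre, whereas the control group, *Six2-Qpc*+/-, was heterozygous and therefore not wild type. *Qpc*, named *Uqcrq* in the table, encodes a subunit of mitochondrial complex III. There were 4 control and 5 mutant libraries, made from amplified, poly(A)-selected cDNA without strand information. The comparison asks how transcripts of the cytosolic glucose pathways stand when electron transport is interrupted in these cells.

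Glycolysis converts glucose to pyruvate in the cytosol; its upper steps consume ATP, and its lower steps, from glyceraldehyde 3-phosphate onward, return ATP and NADH. Lactate dehydrogenase reoxidizes NADH by reducing pyruvate to lactate, which monocarboxylate transporters carry across the plasma membrane. The pentose phosphate pathway leaves glycolysis at glucose 6-phosphate; its oxidative arm yields NADPH, and its non-oxidative arm exchanges carbon between pentoses and glycolytic sugars. Many of these steps are served by several genes, and the isoforms differ in tissue distribution and in regulation.

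Between 21040536 and 23986458 reads were counted per library. Levels are given as CPM, the count per 1000000 counts of the TMM-normalized library, and values per library follow the order control 71, 72, 73 and 76, then mutant 74, 75, 77, 78 and 79. Where means are given, the control mean comes first, each with its SD over 4 control or 5 mutant libraries. *Uqcrq* stood at 76.8 to 107 CPM in control and 16.5 to 28.2 CPM in mutant libraries, which checks the labels (log2 fold change −2.14, SE 0.16, adjusted p = 2.09e-05). Summed markers of nephron progenitors overlapped between groups, with 2042 to 2503 CPM in control and 2029 to 2473 CPM in mutant libraries, and 0 of 7 passed the test (edgeR adjusted p under 0.05). Summed markers of committed progenitors were at 324 to 642 CPM in control and 243 to 350.1 CPM in mutant libraries, with 3 of 5 lower. Stromal markers moved the other way, with 86.1 to 129.5 CPM in control and 187 to 584 CPM in mutant libraries, and 5 of 6 were higher. For all these marker counts, the shares over all genes tested were 7.02% lower and 7.82% higher. Myeloid markers were at 2.22 to 5.65 and 5.16 to 44.3 CPM, with 1 of 4 higher, and endothelial markers at 2.41 to 5.1 and 3.49 to 6.63 CPM, with 1 of 5 higher and 3 of the 5 tested; none of the markers of these lists was at 0 in every library. Of the podocyte, proximal tubule, ureteric bud and erythroid markers, 0 passed, but the low-count filter left only 2 of 4, 2 of 5, 3 of 6 and 1 of 4 of them to be tested. The part of these other cells in the results that follow was not tested, and in bulk RNA fewer cells of a type and less RNA per cell cannot be told apart.

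Of the 10 glucose pathway genes that passed the test, 9 were lower and 1 was higher in *Six2-Qpc*-/- than in control progenitors. The lower genes were those of lower glycolysis (*Aldoc*, *Pgk1*, *Eno1* and *Pkm*), of lactate formation and export (*Ldha* and *Slc16a3*), of the oxidative pentose phosphate arm (*G6pdx* and *Pgls*) and of 1 upper step (*Pfkl*), and the falls ranged from 0.784 of the control mean for *Pgk1* down to 0.365 for *Aldoc*. A single listed gene, *Eno2*, was higher, at 1.91 times the control mean. All 32 genes passed the low-count filter, and 22 did not pass the threshold. An unadjusted p under 0.05 was found for 19 of the 32, and for 4709 of all 14990 genes tested. Among all 14990 genes tested, 14.8% passed in either direction, 7.02% lower and 7.82% higher. The fit was below 0 for 27 of the 32 genes, against 50.8% of all genes tested, and the median log2 fold change was −0.34, against −0.0085. In 10 of the 32 genes the mutant libraries all lay under the lowest control library, and in 1 they all lay over the highest, where 7.73% and 7.5% of all tested genes had such patterns. The listed genes were also more abundant than most, with a median control level of 133 CPM against 21.1 CPM over all tested genes. Together they took 1.97% ± 0.114 of all counts in control libraries (SD, n = 4) and 1.41% ± 0.125 in mutant libraries (SD, n = 5), without overlap. The calls of *Aldoc*, *Eno1*, *Ldha*, *Slc16a3*, *G6pdx* and *Pgls* held under every alternative run, whereas those of *Pfkl*, *Pgk1*, *Pkm* and *Eno2* were lost under some; without control library 73, 6 listed genes and 1046 of all genes passed.

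**Figure D1:**
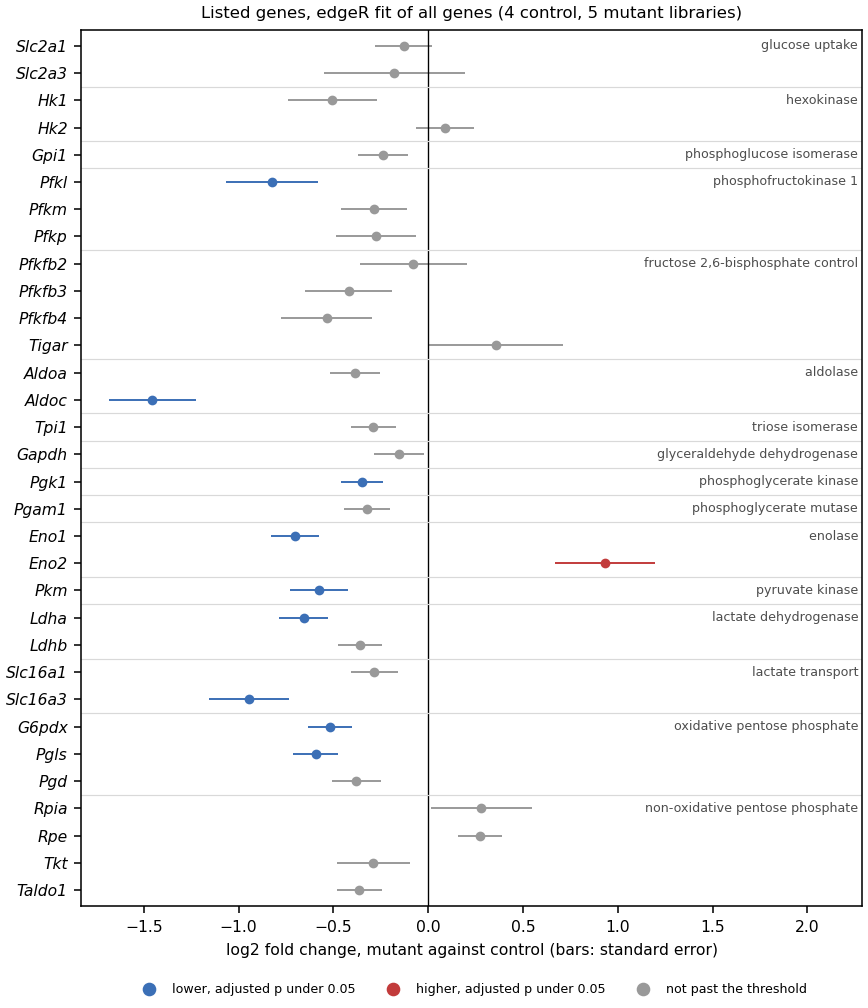
Log2 fold change of each of the 32 listed genes, mutant against control, ordered by step from top to bottom, with bars for the standard error of the edgeR fit of all genes (4 control and 5 mutant libraries). Blue points mark the 9 genes lower and the red point the 1 gene higher at an adjusted p under 0.05, and 27 of the 32 points lie left of 0.

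The bases before the starts of the listed genes were also examined. Promoter windows of 250 bases upstream of the first RefSeq start (GRCm38.p6) were at hand for 31 of the 32 genes. They were searched on both strands for ACGTG and GCGTG, the core letters of the hypoxia response element; ACGTG also lies within CACGTG, the E-box core, which counts as 2 matches because it reads the same on both strands. ACGTG was present in 10 of the 31 windows, against 16.6% of the windows of 27018 genes, and GCGTG in 17 of 31, against 28.2%. Either was present in 23 of 31, against 38.6%. In the 9 windows of genes that were lower, either was present in 8. Taken singly, ACGTG was present in 3 of these 9 (33.3%, against 32.3% of the 31) and GCGTG in 5 (55.6%, against 54.8%). Not all counted windows are free of annotated exons: that of *G6pdx* holds 250 exon bases and that of *Aldoc* 105. The windows of *G6pdx* and *Pfkl*, among others, lie inside the bounds of their genes. The windows shown are those of 4 lower genes of lower glycolysis and lactate handling, chosen because they hold no more than 14 annotated exon bases, and of *Hk2*, whose window holds 2 such matches although the gene did not pass the test. Each runs 5′ to 3′ on the strand of its gene, in lower case, with the matches on either strand in capitals. The windows of *Ldha* (chr7:46845554-46845803, plus strand) and *Slc16a3* (chr11:120948817-120949066, plus strand) lie inside the bounds of those genes, downstream of an earlier start. Those of *Pgk1* (chrX:106186850-106187099, plus strand), *Eno1* (chr4:150236458-150236707, plus strand) and *Hk2* (chr6:82774455-82774704, minus strand) lie before them.
Ldha: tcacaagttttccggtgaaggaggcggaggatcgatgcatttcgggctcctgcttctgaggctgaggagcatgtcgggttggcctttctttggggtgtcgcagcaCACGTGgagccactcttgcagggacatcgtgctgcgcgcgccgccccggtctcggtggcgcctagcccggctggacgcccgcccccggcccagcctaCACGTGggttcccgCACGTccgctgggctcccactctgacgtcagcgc
Slc16a3: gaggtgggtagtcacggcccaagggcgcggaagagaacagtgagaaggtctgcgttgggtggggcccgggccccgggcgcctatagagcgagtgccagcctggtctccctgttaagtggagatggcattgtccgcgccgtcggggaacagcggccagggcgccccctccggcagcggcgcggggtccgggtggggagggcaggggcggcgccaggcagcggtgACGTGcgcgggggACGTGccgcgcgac
Pgk1: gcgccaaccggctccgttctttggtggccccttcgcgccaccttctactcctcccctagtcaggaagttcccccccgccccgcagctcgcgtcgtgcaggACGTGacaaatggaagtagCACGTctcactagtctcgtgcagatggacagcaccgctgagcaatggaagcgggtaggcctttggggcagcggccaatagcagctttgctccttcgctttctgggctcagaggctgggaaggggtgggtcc
Eno1: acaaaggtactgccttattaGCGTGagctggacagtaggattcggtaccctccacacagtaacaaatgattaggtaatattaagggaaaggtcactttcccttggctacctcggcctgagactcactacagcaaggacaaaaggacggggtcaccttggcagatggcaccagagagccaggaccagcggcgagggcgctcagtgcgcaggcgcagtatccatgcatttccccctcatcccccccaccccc
Hk2: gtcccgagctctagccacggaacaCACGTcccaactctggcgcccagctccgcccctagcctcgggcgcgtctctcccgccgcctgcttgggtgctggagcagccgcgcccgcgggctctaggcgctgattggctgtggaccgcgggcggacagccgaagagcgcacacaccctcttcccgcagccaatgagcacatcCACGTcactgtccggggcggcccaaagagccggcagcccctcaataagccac
The *Ldha* window held 5 matches to ACGTG, 4 of them in 2 copies of CACGTG, those of *Slc16a3*, *Pgk1* and *Hk2* held 2 each, and that of *Eno1* held a single GCGTG. These matches describe letters in the window and were not tested as binding sites. The 27018 windows were not limited to the genes tested here or matched for base composition. Whether the matches go with the changes in level was not tested.

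Of the 5 genes of glucose uptake, hexokinase and phosphoglucose isomerase, 0 passed the test. *Slc2a1*, which encodes the GLUT1 glucose carrier, made up 97.9% ± 1.16 of the summed level per kilobase of *Slc2a1* and *Slc2a3* in control libraries (SD, n = 4) and 98.0% ± 0.682 in mutant libraries (SD, n = 5; exact permutation test over 126 splits, 2-sided p = 0.897). Its level was 199.9 ± 11.7 and 183 ± 39.2 CPM (log2 fold change −0.13, SE 0.15, adjusted p = 0.598), and mutant libraries lay on both sides of the control range. *Slc2a3*, which encodes GLUT3, was at 4.51 to 16.8 CPM in control and 6.27 to 16.1 CPM in mutant libraries (log2 fold change −0.18, SE 0.37, adjusted p = 0.78). *Hk1*, the widely expressed hexokinase that traps glucose in the cell, was at 79.6 ± 20.7 CPM in control and 56.1 ± 20.2 CPM in mutant libraries (log2 fold change −0.51, SE 0.24, adjusted p = 0.162). *Hk2*, the inducible hexokinase, had 27.5 ± 1.74 and 29.2 ± 5.33 CPM (log2 fold change 0.09, SE 0.15, adjusted p = 0.732), and its share of both hexokinases per kilobase was 21.7% ± 3.93 and 29.8% ± 6.34 (SD; exact permutation p = 0.0714, adjusted over 12 shares 0.131). Without mutant library 74 the fit for *Hk1* passed the threshold (adjusted p = 0.0456), whereas *Hk2* stayed short of it under every alternative. *Gpi1*, the isomerase that makes fructose 6-phosphate, was at 563 ± 79.8 and 477 ± 65.2 CPM with overlapping groups (log2 fold change −0.24, SE 0.13, adjusted p = 0.234).

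*Pfkl*, the liver-type subunit of phosphofructokinase 1, which commits sugar to glycolysis, was the most abundant of the 3 subunit genes per kilobase and the one that was lower. Its level was 362, 603, 422 and 322 CPM in control and 364, 147, 208, 195 and 294 CPM in mutant libraries. Mutant libraries 75, 77, 78 and 79 were below every control library, but mutant library 74 lay within the control range. Its log2 fold change was −0.82 (SE 0.24, edgeR adjusted p = 0.0382). The call was lost when control library 71, 72 or 73 or mutant library 75, 77 or 78 was left out (adjusted p = 0.0612 to 0.127), and also without the low-count filter (adjusted p = 0.118). *Pfkm*, the muscle-type subunit, was at 107 ± 19.3 and 87.9 ± 20.6 CPM (log2 fold change −0.29, SE 0.17, adjusted p = 0.285), and *Pfkp*, the platelet-type subunit, was at 50.6 ± 8.53 and 41.8 ± 13.5 CPM (log2 fold change −0.28, SE 0.21, adjusted p = 0.398); neither passed. Over 748 exonic bases *Pfkp* lies opposite *Pitrm1*, which had 40108 reads over all libraries against 9499 for *Pfkp*, and reads there could not be assigned by strand.

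The makeup of phosphofructokinase 1 transcripts shifted with this. *Pfkl* supplied 69, 74.1, 67.9 and 69.1% of the summed level per kilobase of the 3 genes in the control libraries and 64.7, 56.5, 61.7, 60.8 and 63.5% in the mutant libraries. The groups did not overlap, mutant library 74 being the mutant nearest to control. The mean share was 70.0% ± 2.74 in control and 61.4% ± 3.15 in mutant libraries (SD, n = 4 and 5; 2-sided exact permutation p = 0.00794, the smallest that 126 splits allow; adjusted over 12 shares, 0.0476). The share of *Pfkm* rose in return, from 23.5, 19.9, 25.3 and 24% to 26.4, 31.8, 32, 30.4 and 28.5%, without overlap (means 23.2% ± 2.3 and 29.8% ± 2.35, SD; exact permutation p = 0.0159, adjusted 0.0476). The share of *Pfkp* was 6.77% ± 0.589 and 8.75% ± 1.95 and did not pass (exact permutation p = 0.0873, adjusted 0.131). Because these are shares of a single sum, they are not separate findings, and they do not depend on how libraries were scaled. The adjustment nevertheless counts each of them among the 12 shares. The adjusted p of 0.0476, which the *Aldoc* and *Eno2* shares also have, rests on that count. An adjustment that counts shares of a single sum once was not run. With any 1 library left out fewer splits exist, and the adjusted p of the *Pfkl* and *Pfkm* shares was then 0.0571 to 0.107.

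Genes that set fructose 2,6-bisphosphate, the strongest activator of phosphofructokinase 1, were expressed at low levels, and 0 of 4 passed. *Pfkfb2*, *Pfkfb3* and *Pfkfb4* encode enzymes that both make and remove this regulator, and *Tigar* encodes a phosphatase that lowers it. *Pfkfb4* was at 8.86, 12.1, 10.1 and 8.44 CPM in control and 7.5, 8.37, 8.36, 5.95 and 3.86 CPM in mutant libraries, so that the groups did not overlap although the fit did not pass (log2 fold change −0.54, SE 0.24, adjusted p = 0.146). *Pfkfb3* had 14.8 ± 2.05 and 11 ± 3.75 CPM (log2 fold change −0.42, SE 0.23, adjusted p = 0.233), and it passed without mutant library 74 (adjusted p = 0.0345). *Pfkfb2* was at 2.9 to 7.8 CPM and *Tigar* at 1.01 to 3.49 CPM over all 9 libraries, with as few as 26 reads for *Tigar* (adjusted p = 0.88 and 0.528). Of the 3 *Pfkfb* shares, 0 passed (adjusted over 12 shares, exact permutation p = 0.444, 0.897 and 0.648 for *Pfkfb2*, *Pfkfb3* and *Pfkfb4*).

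**Figure D2:**
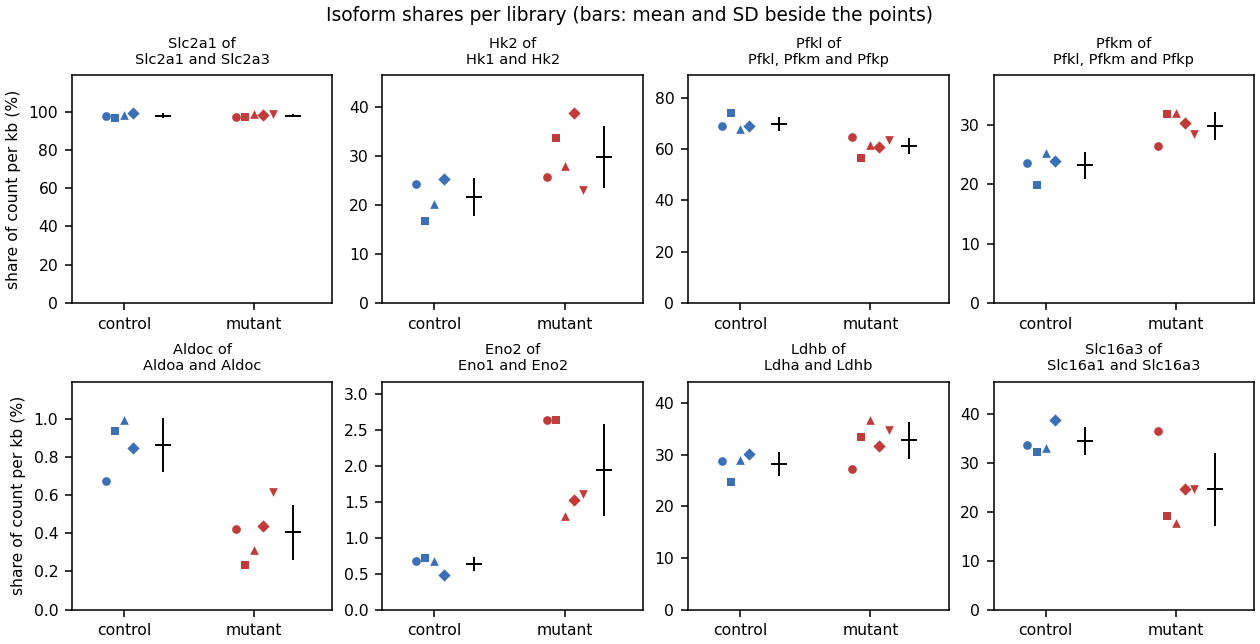
Share of 1 isoform in the summed level per kilobase of its family, in percent, for 8 of the 12 shares compared, with control libraries in blue and mutant libraries in red and 1 symbol for each library; bars beside the points give mean and SD. The share of *Pfkl* (70.0% and 61.4%), *Pfkm* (23.2% and 29.8%), *Aldoc* (0.863% and 0.405%) and *Eno2* (0.636% and 1.94%) did not overlap between groups, whereas the other 4 did.

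Aldolase splits fructose 1,6-bisphosphate into 2 trioses. *Aldoa*, the ubiquitous form, was the main form, with 1752 ± 304 CPM in control and 1341 ± 125 CPM in mutant libraries (log2 fold change −0.39, SE 0.13, adjusted p = 0.0627), and it passed only when mutant library 74 was left out among the single libraries (adjusted p = 0.031). *Aldoc*, the form best known from brain, had the steepest fall among the 32 genes. It stood at 26.4, 26.5, 26.9 and 27.6 CPM in control and 11.7, 5.71, 6.78, 10.8 and 14 CPM in mutant libraries. The control libraries were close together, and all mutant libraries were far below them. The log2 fold change was −1.45 (SE 0.23, edgeR adjusted p = 0.00233) and ranged from −1.79 to −1.31 over the alternatives, each of which kept the call. The *Aldoc* share of the summed level per kilobase of *Aldoa* and *Aldoc* was 0.675, 0.938, 0.994 and 0.846% in control and 0.421, 0.236, 0.31, 0.439 and 0.617% in mutant libraries, without overlap (exact permutation p = 0.0159, adjusted over 12 shares 0.0476), so the change concerned a minor part of this sum. With any 1 library left out that adjusted p was 0.0571 to 0.107.

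*Tpi1*, *Gapdh*, *Pgk1* and *Pgam1* carry the trioses to 2-phosphoglycerate. *Gapdh*, the dehydrogenase that yields NADH and the most abundant listed gene per kilobase, was at 5306, 4061, 4536 and 5319 CPM in control and 3566, 4184, 4989, 4711 and 4119 CPM in mutant libraries. The groups overlapped and the test was not passed (log2 fold change −0.16, SE 0.13, adjusted p = 0.457). *Pgk1*, which returns the first ATP, was at 761, 588, 614 and 716 CPM in control and 548, 480.4, 504, 552 and 542 CPM in mutant libraries. Its groups did not overlap, but the fall was small, at −0.35 on the log2 scale (SE 0.11, edgeR adjusted p = 0.0496). That value was at the threshold, and the call was lost with RLE size factors (adjusted p = 0.0621), without the filter and without any single library other than control 72 and mutant 74 (adjusted p = 0.0735 to 0.127). *Pgam1*, the mutase, had no overlap either, with 592, 442, 442 and 542 CPM in control and 425, 429, 357, 427 and 373 CPM in mutant libraries, yet did not pass (log2 fold change −0.33, SE 0.12, adjusted p = 0.0852). *Tpi1*, the triose isomerase, was at 1420.5 ± 218 and 1161 ± 57 CPM (log2 fold change −0.29, SE 0.12, adjusted p = 0.113). With 1 surrogate variable in the fit, *Gapdh* passed at −0.29 on the log2 scale (adjusted p = 0.0154), as did *Pgam1* (adjusted p = 0.0235) and *Tpi1* (adjusted p = 0.022).

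Enolase was the step whose listed isoforms, *Eno1* and *Eno2*, changed in opposite directions. *Eno1*, the widely expressed form that makes phosphoenolpyruvate, was at 2096, 1852, 1808 and 1686 CPM in control and 1398, 948, 1140.2, 1135 and 1098 CPM in mutant libraries. The mutant libraries all lay under the lowest control library, and mutant library 75 was lowest of all. On the log2 scale the fold change was −0.70 (SE 0.13, edgeR adjusted p = 0.0043). *Eno2*, the form used as a marker of neurons, was at 19.6, 18.3, 16.9 and 11.3 CPM in control and 52.3, 35.4, 20.7, 24.3 and 24.9 CPM in mutant libraries. The groups did not overlap, although mutant library 77 was only slightly above control library 71, and mutant libraries 74 and 75 were highest. Its log2 fold change was 0.93 (SE 0.26, edgeR adjusted p = 0.0317), and the call was lost without control library 71, 72, 73 or 76 or mutant library 75 (adjusted p = 0.055 to 0.0801). The *Eno2* share of the summed level per kilobase of *Eno1* and *Eno2*, which leaves out *Eno3* and *Eno1b*, was 0.673, 0.713, 0.672 and 0.484% in control and 2.64, 2.64, 1.3, 1.53 and 1.62% in mutant libraries, a rise without overlap (exact permutation p = 0.0159, adjusted over 12 shares 0.0476) that left *Eno1* the more abundant of this pair; with any 1 library left out that adjusted p was 0.0571 to 0.161. *Eno1b*, an intronless copy of *Eno1* that is also listed in the table, held 22.7% to 23.9% of the reads of both, which cannot be told apart with certainty, and their sum fell by 0.70 on the log2 scale (adjusted p = 0.0043).

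*Pkm*, the pyruvate kinase gene of embryonic and most adult tissues, was at 2238, 2424, 2242 and 1945 CPM in control and 1965, 1109, 1419, 1335 and 1598 CPM in mutant libraries. Mutant library 74 reached the lower end of the control range, and the other mutant libraries were below it. The log2 fold change was −0.57 (SE 0.15, edgeR adjusted p = 0.0245), and the call was lost without control library 71, 72 or 73 or mutant library 77 or 78 (adjusted p = 0.0537 to 0.0684). The splice forms PKM1 and PKM2 share 1 gene row and could not be separated. From aldolase to pyruvate kinase, 4 of 9 genes were lower and 1 higher, against 7.02% lower and 7.82% higher among all genes tested. From uptake to the control of phosphofructokinase 1, 1 of 12 was lower (8.33%), near the share of all genes. Whether these counts differ was not tested.

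Of the 4 genes of lactate formation and transport, 2 were lower in mutant progenitors and 0 were higher, against 7.02% and 7.82% of all genes tested. *Ldha*, the subunit of lactate dehydrogenase linked to lactate formation, was at 2916, 2534, 2297 and 2325 CPM in control and 1948, 1575, 1356, 1599.9 and 1502 CPM in mutant libraries. All mutant libraries were below all control libraries, with mutant library 74 nearest to them, and the log2 fold change was −0.66 (SE 0.13, edgeR adjusted p = 0.00606; −0.74 to −0.58 over the alternatives). *Ldhb*, the subunit prominent in oxidative tissues, was at 869, 616, 691 and 739.7 CPM in control and 536, 585, 580.4, 547 and 590.1 CPM in mutant libraries. Here too the groups did not overlap, but the fit missed the threshold narrowly (log2 fold change −0.36, SE 0.11, adjusted p = 0.0502). It passed in 6 of 17 alternatives, among the left-out libraries only without control library 72 (adjusted p = 0.0376). The *Ldhb* share of the summed level per kilobase was 28.1% ± 2.34 in control and 32.7% ± 3.63 in mutant libraries (SD; exact permutation p = 0.0873, adjusted 0.131). A difference in the balance of the subunits was therefore not shown.

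*Slc16a3* encodes MCT4, a carrier suited to lactate export, and was at 93.7, 123, 100.2 and 114 CPM in control and 87, 38.1, 38.7, 55.8 and 60.3 CPM in mutant libraries. Mutant library 74 was just below the lowest control library, and the other mutant libraries were well below it. Its log2 fold change was −0.94 (SE 0.21, edgeR adjusted p = 0.0118; −1.28 to −0.77 over the alternatives). *Slc16a1*, which encodes the widely expressed carrier MCT1, was at 210.4 ± 36.4 and 173 ± 14.1 CPM (log2 fold change −0.28, SE 0.12, adjusted p = 0.137). The *Slc16a3* share of both carriers was 34.5% ± 2.92 in control and 24.6% ± 7.44 in mutant libraries, with overlap through mutant library 74, and did not pass after adjustment (exact permutation p = 0.0476, adjusted 0.114).

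In the oxidative arm of the pentose phosphate pathway, 2 of 3 genes were lower and 0 were higher, against 7.02% and 7.82% of all genes tested. *G6pdx*, the rate-setting dehydrogenase that makes NADPH, was at 68.8, 80.8, 67.9 and 73.5 CPM in control and 48.8, 60.8, 49.9, 47 and 47.7 CPM in mutant libraries. The groups did not overlap, and mutant library 75 was the highest mutant. The log2 fold change was −0.52 (SE 0.12, edgeR adjusted p = 0.0124). *Pgls*, the lactonase of the next step, was at 211, 150.0, 188 and 195 CPM in control and 131, 110.0, 118, 132 and 126 CPM in mutant libraries, again without overlap (log2 fold change −0.59, SE 0.12, adjusted p = 0.00666). *Pgd*, the dehydrogenase that completes this arm, overlapped between groups, with 90.6 ± 13 and 69.6 ± 7.74 CPM, and missed the threshold (log2 fold change −0.38, SE 0.13, adjusted p = 0.0626). It passed in 6 of 17 alternatives, among them without control library 71 (adjusted p = 0.0317) or mutant library 74 (adjusted p = 0.0287). In this unstranded counting, 418 exonic bases of *G6pdx* lie opposite *Ikbkg*, which had 4517 reads over all libraries against 12547 for *G6pdx*. On the same strand, 776 exonic bases of *Pgls* coincide with *Fam129c*, which had 487 reads against 31192 for *Pgls*.

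In the non-oxidative arm 0 of 4 genes passed, and the fits pointed in both directions. *Taldo1*, the transaldolase, was at 158 ± 15.2 and 123 ± 14.2 CPM and missed the threshold narrowly (log2 fold change −0.36, SE 0.12, adjusted p = 0.0528). It passed in 7 of 17 alternatives, among them without control library 72 (adjusted p = 0.0462) or mutant library 77 (adjusted p = 0.043). *Tkt*, the transketolase, had 169 ± 30.1 and 139 ± 41.5 CPM (log2 fold change −0.29, SE 0.19, adjusted p = 0.335), and passed without mutant library 74 (adjusted p = 0.0417). *Rpe* and *Rpia*, the epimerase and isomerase of ribulose 5-phosphate, were estimated above 0, with log2 fold change 0.27, SE 0.12, adjusted p = 0.129 and log2 fold change 0.28, SE 0.26, adjusted p = 0.505. Across the whole pentose phosphate pathway, 2 of 7 genes were lower (median log2 fold change −0.36). Across glycolysis and lactate 7 of 25 were lower and 1 was higher (median −0.33). Of all genes tested, 7.02% were lower and 7.82% were higher, with a median of −0.0085.

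**Figure D3:**
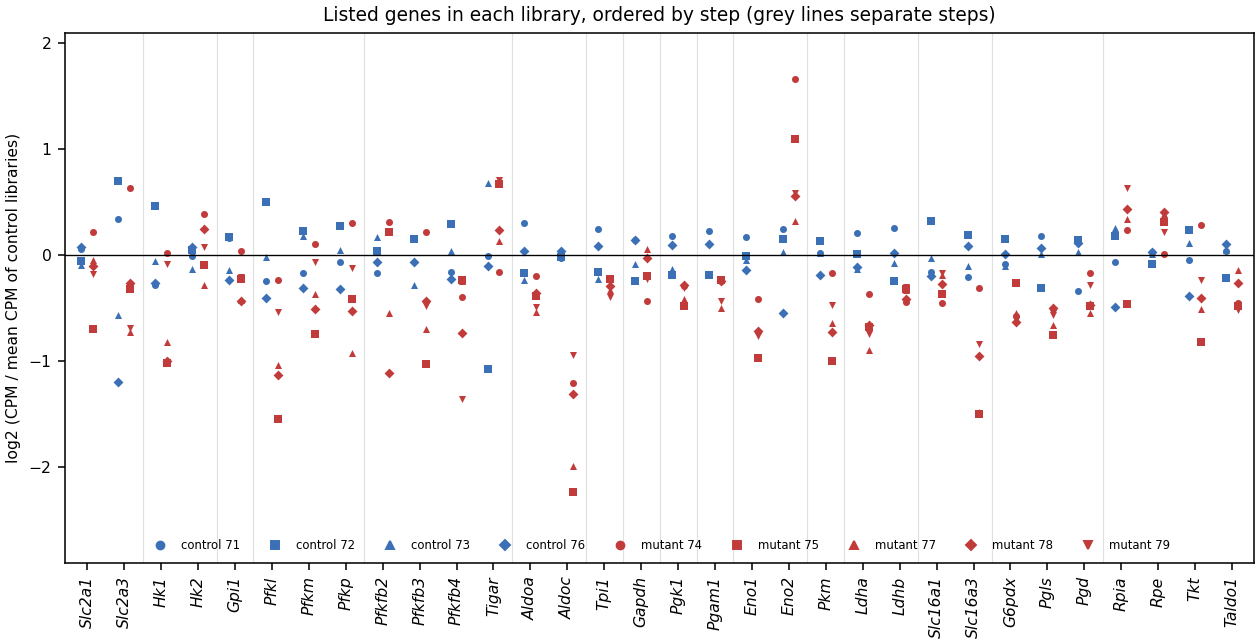
Log2 ratio of the CPM of each of the 32 listed genes in each library to the mean CPM of the control libraries, with the 4 control libraries in blue and the 5 mutant libraries in red, each with its own symbol, ordered by step. In 10 genes all red points lie below all blue points and in *Eno2* they lie above; mutant library 74 (red circles) is the highest mutant in 19 of 32 genes.

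Summed over the listed isoforms of a step, as CPM per kilobase, in 7 of 16 steps the mutant libraries all lay under the control libraries, namely phosphoglycerate kinase, phosphoglycerate mutase, enolase, lactate dehydrogenase, lactate transport and both arms of the pentose phosphate pathway. The other 9 steps overlapped. Among single genes tested, 7.73% lay lower without overlap, and the share among sums of other genes was not computed. Phosphoglycerate kinase and phosphoglycerate mutase hold 1 gene each, so these steps repeat the values of *Pgk1* and *Pgam1*. Among the 7, enolase had the largest drop as a ratio of means (−0.68 on the log2 scale), from 924 ± 86.1 to 576 ± 82.8 CPM per kilobase, and lactate dehydrogenase went from 1985 ± 224 to 1339 ± 109 (mean ± SD, n = 4 and 5). The oxidative pentose phosphate arm was at 121 ± 5.74 and 84.1 ± 3.67 CPM per kilobase. Glyceraldehyde phosphate dehydrogenase remained the most abundant step in both groups, at 3384 ± 434 and 3038 ± 390.1, followed by lactate dehydrogenase, and the control of fructose 2,6-bisphosphate was the least abundant, at 7.88 ± 0.574 and 6.3 ± 1. Over the 16 steps the mean summed level thus spanned from 7.88 to 3384 CPM per kilobase in control libraries.

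**Figure D4:**
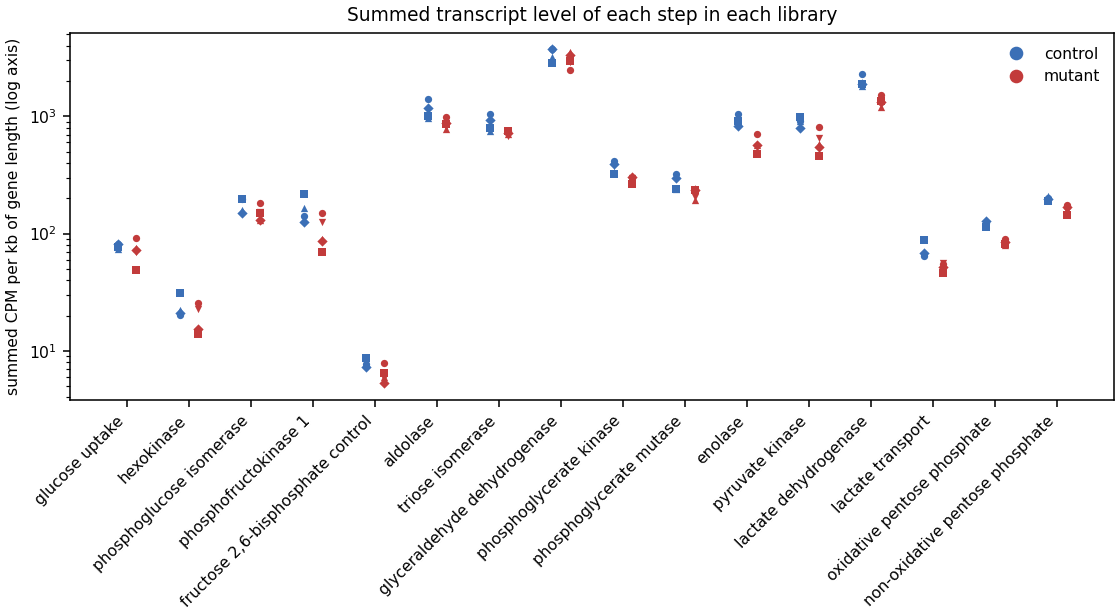
Summed level of each of 16 steps in each library, in CPM per kilobase of gene length on a log axis, with control libraries in blue and mutant libraries in red. Enolase (835.8 to 1041 against 481 to 709) and lactate dehydrogenase (1831 to 2317 against 1213 to 1514) are among the 7 steps without overlap, and glyceraldehyde phosphate dehydrogenase (2859.9 to 3745 against 2511 to 3513) is among the 9 with overlap.

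The mutant libraries differed among themselves in these genes. Mutant library 74 was the highest mutant in 19 of 32 genes, whereas mutant library 75 was the lowest in 13. The median ratio to the control mean over the 32 genes was −0.17 on the log2 scale in library 74, −0.30 in library 79, and between −0.48 and −0.39 in libraries 75, 77 and 78. The normalization factors of libraries 74 and 79, at 1.03 and 1.01, lay in the range of the controls (1.01 to 1.09), whereas those of the other 3 were lower (0.933 to 0.942). Left out together, which was chosen after these values were seen, 18 of the 32 genes passed, 16 lower and 2 higher, against 23.8% of all genes. With 1 surrogate variable as a covariate, 16 passed, 15 of them lower, against 17.8% of all genes.

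Genes next to these pathways were counted in the same fit, in which 7.02% of all genes tested were lower and 7.82% were higher. Among 36 further isoforms and accessory genes, 24 passed the low-count filter, 6 were lower and 0 were higher. *Eno3*, the muscle enolase, was at 140.1 ± 19.5 CPM in control and 62 ± 11.6 CPM in mutant libraries (log2 fold change −1.18, SE 0.15, adjusted p = 0.000715), and *Pgm2*, a phosphoglucomutase, at 79.6 ± 12.7 and 41.6 ± 12.1 CPM (log2 fold change −0.94, SE 0.19, adjusted p = 0.00816). *Bsg*, which encodes basigin, the partner that brings MCT1 and MCT4 to the membrane, was at 1409 ± 153 and 1083 ± 89.2 CPM (log2 fold change −0.38, SE 0.11, adjusted p = 0.0401). *Eno1b* was described with *Eno1* (log2 fold change −0.69, SE 0.12, adjusted p = 0.00359), and *Shpk*, sedoheptulokinase, was lower and rare, with a mean of 2.99 CPM in control libraries.

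Of 14 genes that govern the entry of pyruvate into mitochondria, 3 were higher and 1 was lower, against 7.82% and 7.02% of all genes tested. Their median was 0.19 on the log2 scale, against −0.0085 over all genes tested. *Pdk4*, a kinase that inhibits pyruvate dehydrogenase, was at 19.4, 22.4, 19.1 and 17.3 CPM in control and 38.6, 33.9, 50.6, 39.9 and 45.1 CPM in mutant libraries, a rise without overlap (log2 fold change 1.09, SE 0.15, adjusted p = 0.000993). *Pdk2*, another such kinase, was lower (log2 fold change −0.55, SE 0.13, adjusted p = 0.014). *Pdp1*, the phosphatase that opposes them, was higher (log2 fold change 0.60, SE 0.16, adjusted p = 0.0268), as was *Pdha1*, the catalytic subunit of the complex (log2 fold change 0.37, SE 0.10, adjusted p = 0.0276). Of 10 genes of the shuttles that reoxidize cytosolic NADH, *Got1*, the cytosolic aspartate aminotransferase, was higher (log2 fold change 0.52, SE 0.11, adjusted p = 0.00969), *Slc25a11*, the oxoglutarate carrier, was lower (log2 fold change −0.39, SE 0.11, adjusted p = 0.0276) and 8 did not pass. The shuttle counts are 10% in each direction, near the shares of all genes tested. Of 7 glucose-sensing and related regulators, 2 were lower, against 7.02% of all genes tested. *Txnip*, which restrains glucose uptake and is induced by glucose through MondoA and ChREBP, was at 217, 226, 226 and 299 CPM in control and 140.3, 154, 98.1, 81.7 and 158 CPM in mutant libraries, without overlap (log2 fold change −0.94, SE 0.19, adjusted p = 0.00689). *Mlxipl*, which encodes ChREBP, was rare and overlapped between groups, at 8.41 ± 4.58 and 2.57 ± 1.51 CPM (log2 fold change −1.70, SE 0.45, adjusted p = 0.0248). *Hif1a* and *Trp53* did not pass the threshold.

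**Figure D5:**
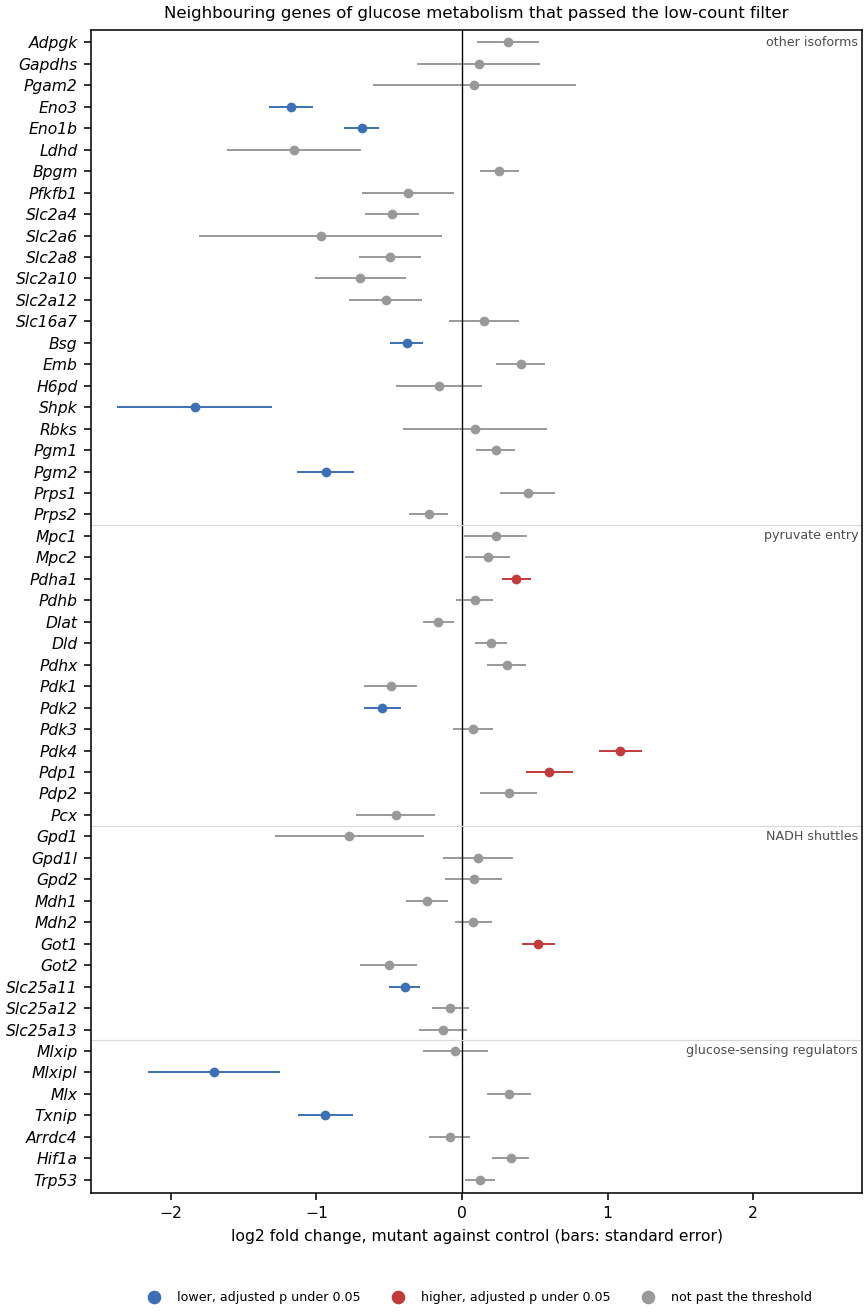
Log2 fold change, mutant against control, of the genes next to the listed pathways that passed the low-count filter, grouped as other isoforms, pyruvate entry, NADH shuttles and glucose-sensing regulators, with bars for the standard error. Blue points mark lower genes, 5 of them among other isoforms, where 1 further counted gene is not drawn, and red points mark higher genes, 3 of them in pyruvate entry.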

How the data were processed

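RNA from sorted SIX2 progenitors was sequenced in 4 control and 5 mutant libraries, named by the numbers in their labels. The labels do not say that they came from separate animals, so p-values measure only the spread between these libraries. The authors deposited 1 table with read counts per gene and library, whose low-input cDNA preparation and unstranded libraries can distort rare transcripts and merge overlapping genes. The submitters' processing notes name STAR, DESeq2 and mm10, with no version; the counting tool and annotation are not given in the sources used here. The table's 9 columns of FPKM per library and the columns of the authors' own comparison (group signal, fold change and p-values) were not used. Totals of 21040536 to 23986458 counts leave little counting error for abundant genes.

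The fit of all genes used edgeR 4.0.16 in R 4.3.3 (filterByExpr with a minimum count of 10, TMM, robust quasi-likelihood test, Benjamini-Hochberg over 14990 genes, threshold 0.05), and the listed genes were read from that fit. The procedure was tested on simulated data. Isoform shares used counts per kilobase of the gene length in the table and 2-sided exact permutation tests over 126 splits. Alternatives used RLE and upper-quartile factors, no filter, at least 10 counts in every library, DESeq2 1.42.0, limma-voom with sample quality weights (limma 3.58.1), sva 3.50.0, near-identical copies summed and each library left out. Figures were drawn with Python 3.11.15 and matplotlib 3.10.9.

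Members, neighbouring genes and marker lists (nephron progenitor, committed, stroma, myeloid, endothelium, podocyte, proximal tubule, ureteric bud and erythroid) were chosen with earlier results of these data known. All listed genes are accounted for. Values per library are given for genes past the threshold, for families whose share differed and for some genes without overlap or near the threshold, the latter chosen after their values were seen. Neighbouring genes are named if past the threshold, and 2 genes that the counts include are not reported here. Coordinates were compared with GENCODE M21 (GRCm38): 32 of 32 listed genes had the same chromosome and strand, 27 of them with both ends within 100 bases. Promoter sequences are from RefSeq, matched by symbol.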

Additional observations from a re-analysis of the deposited data

Results flagged for a closer look

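Samples far from their group were sought in 90 sets of values (*Uqcrq*, the 32 listed genes and the 12 isoform shares in each group). The gap to the nearest other sample, divided by the range of the group, had to exceed the 95% critical value of Dixon's test. Chance alone sets apart about 1 in 20 groups, or 4.5 of 90, and 2 were found. *Slc2a3* was at 16.1 CPM in mutant library 74, with the nearest mutant library at 8.61 CPM, while the control libraries spanned 4.51 to 16.8 CPM. *G6pdx* was at 60.8 CPM in mutant library 75, with the nearest mutant library at 49.9 CPM, and this highest mutant value was still below the lowest control value of 67.9 CPM. Without mutant library 75 the call of *G6pdx* remained.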

How the results depend on the processing

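No paired analysis was possible because the labels do not give litters or pairs. Whether control and mutant libraries came from the same litters is therefore not known. The count of genes past the threshold, 2225 of all and 10 of the listed, was 4868 and 19 with limma-voom and sample quality weights, both changed together, and 3590 and 18 with mutant libraries 74 and 79 both left out, which was chosen after seeing the data. With 1 surrogate variable 16 listed genes passed. Leaving out each library in turn gave 1046 to 3136 of all genes and 6 to 15 of the listed genes. Without the filter 1975 and 8 passed, with DESeq2 3184 and 14. The share of lower genes among all calls stayed between 45.2% and 53.7%, and the median log2 fold change of all genes between −0.036 and 0.048.

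The direction of 3 genes that did not pass turned: *Slc2a3* was at 0.15 with a surrogate variable and −0.48 to 0.16 with 1 library left out (above 0 without control 72), *Hk2* at −0.024 without mutant libraries 74 and 79, and *Pfkfb2* at 0.081 with a surrogate variable and −0.20 to 0.094 with 1 library left out (above 0 without mutant 77 or 78). No gene past the threshold changed direction. With 1 library left out, the difference in share, mutant minus control, was −9.43 to −7.27 percentage points for *Pfkl*, 5.55 to 7.49 for *Pfkm*, −0.521 to −0.415 for *Aldoc* and 1.13 to 1.47 for *Eno2*, each short of the threshold, since fewer splits exist. It was −0.391 to 0.486 for *Slc2a1* and −2.87 to 2.44 for *Pfkfb3*, around 0. Counts without division by gene length kept all share calls. Summing near-identical copies kept the calls of *Eno1*, *Pgk1*, *Ldha* and *G6pdx*. Depth limits *Tigar*, *Pfkfb2* and *Rpia* most, which had 26, 59 and 70 reads in their lowest libraries.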

Other observations

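The glucose carrier and monocarboxylate carrier families were also read as a whole, a choice made after the values were seen. Of 12 *Slc2a* genes in the table, 9 were tested and 0 passed. An unadjusted p under 0.05 was found for 5 of the 9, and for 4709 of all 14990 genes tested. The fit was below 0 for 8 of the 9, against 50.8% of all genes tested. *Slc2a5*, which encodes the fructose carrier GLUT5, came nearest, with mutant libraries all below control libraries (log2 fold change −1.49, SE 0.48, adjusted p = 0.0528). It was rare, at 5.23 ± 1.76 CPM in control and 1.85 ± 1.17 CPM in mutant libraries, with only 6 reads in mutant library 77. Of 14 *Slc16a* genes, 11 were tested, 2 were lower and 2 were higher, against 7.02% and 7.82% of all genes tested. Beside *Slc16a3*, *Slc16a13* was lower, at 8.3 ± 2.47 CPM in control and 4.31 ± 1.09 CPM in mutant libraries (log2 fold change −0.95, SE 0.27, adjusted p = 0.0325). *Slc16a6* was higher, at 8.12 ± 1.74 and 17.9 ± 6.88 CPM (log2 fold change 1.14, SE 0.27, adjusted p = 0.0138).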
